A study of Mus musculus with 3 samples.

Results

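Collagen IV, the nidogens and the heparan sulfate proteoglycans perlecan and agrin make up, with laminin, the sheet of basement membrane under epithelium and around vessels. The 10 genes described here are the collagen IV chains Col4a1 to Col4a6, the nidogens Nid1 and Nid2, perlecan (Hspg2) and agrin (Agrn). They were taken as the array features whose platform annotation gives 1 gene symbol equal to a listed name, and 12 features matched. All 12 had a log2 ratio on each of 3 arrays, so 10 of 19015 rows of the table belong to these genes. The list of symbols was chosen by gene family with the log2 ratios of this same comparison already known, so the ratios below are a description and no p is given for a gene or for the set.

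Each array compared metanephroi (the rudiments of the lasting kidney) at 11.5 days post coitum (dpc) in channel 1 with fetal kidney at 13.5 dpc in channel 2. Tissue of CD1 mouse embryos was microdissected as pools of both sexes, and amplified RNA of both ages was labelled and hybridised together on Compugen mouse oligonucleotide arrays. Dye orders were red/green on arrays 1 and 2 and green/red on array 3. The labels name no genotype or treatment. They do not say whether different RNA extracts were used on each array, so the SD over arrays may be technical. Values are log2 ratios of the 2 channels. A positive ratio is taken to mean more RNA at 11.5 dpc, because channel 1 held that age. That direction is likely and not settled, and each direction below turns with it. Over all rows array 3 correlated at 0.12 with array 1 and -0.12 with array 2 (Pearson's r across genes, which are not independent replicates), against 0.27 between arrays 1 and 2. Where arrays 1 and 2 agreed on a large ratio, array 3 mostly, but not always, had the same sign if its ratio was large too. Of 341 rows at least 2-fold with 1 sign on arrays 1 and 2, 172 were at least 2-fold on array 3. Of these 172 rows, 130 had that sign on array 3 and 42 the opposite one. All 7 erythroid markers measured were above 0 on every array (Klf1, an erythroid transcription factor chosen here after its values were seen, had 1.99, 2.42 and 2.12). Array 3 is therefore read in the same direction as the others, and values with its sign turned are given as an alternative. Ratios give no level, so the labelled tissue could not be checked against its defining markers. In whole tissue, fewer cells of a type and less RNA per cell cannot be told apart.

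Collagen IV chains assemble as trimers in the endoplasmic reticulum and are then cross-linked into a network outside the cell. Col4a1 and Col4a2 chains form the trimer of nearly every basement membrane, Col4a3, Col4a4 and Col4a5 chains that of the mature glomerular basement membrane, and Col4a5 and Col4a6 chains that of Bowman's capsule and some tubules. In the forming glomerulus the first of these networks is laid down early and the second is added as podocytes mature. The genes lie in head-to-head pairs (Col4a1 with Col4a2, Col4a3 with Col4a4, Col4a5 with Col4a6). Nidogens link the laminin and collagen IV networks, and perlecan and agrin carry heparan sulfate chains.

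The promoter windows of the pairs are printed because the ratios of the paired genes are compared further below. RefSeq windows (GRCm38.p6) of 300 bases, 250 before and 50 after the gene's start, were found for 8 of the 10 genes, in 9 windows, since Agrn has 2. The windows of Col4a1 (minus strand, chr8:11312777-11313076) and Col4a2 (plus strand, chr8:11312555-11312854) share 78 bases, and the starts lie 21 bases apart. Capitals in the next lines mark the shared stretch, read 5′ to 3′ on each gene's own strand.
Col4a1: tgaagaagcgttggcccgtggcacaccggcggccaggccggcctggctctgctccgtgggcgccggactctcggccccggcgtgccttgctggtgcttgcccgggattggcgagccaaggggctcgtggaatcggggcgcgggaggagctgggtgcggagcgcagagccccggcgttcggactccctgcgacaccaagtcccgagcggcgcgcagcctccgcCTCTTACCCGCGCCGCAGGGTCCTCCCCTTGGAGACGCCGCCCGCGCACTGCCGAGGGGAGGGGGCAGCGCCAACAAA
Col4a2: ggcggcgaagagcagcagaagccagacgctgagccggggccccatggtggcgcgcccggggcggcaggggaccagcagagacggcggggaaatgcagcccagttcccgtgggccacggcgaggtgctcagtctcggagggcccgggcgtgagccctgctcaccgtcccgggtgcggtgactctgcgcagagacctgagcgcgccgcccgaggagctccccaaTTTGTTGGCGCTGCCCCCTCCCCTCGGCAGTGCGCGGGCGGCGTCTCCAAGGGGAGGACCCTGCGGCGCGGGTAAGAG
For the other pairs, capitals mark CCAAT or GGGCGG on either strand (ATTGG and CCGCCC on the strand printed). The start of Col4a3 lies inside the window of Col4a4 (minus strand, chr1:82586800-82587099). The windows of Col4a5 (plus strand, chrX:141475169-141475468) and Col4a6 (minus strand, chrX:141474027-141474326) are separated by 842 bases, with starts 1343 bases apart.
Col4a4: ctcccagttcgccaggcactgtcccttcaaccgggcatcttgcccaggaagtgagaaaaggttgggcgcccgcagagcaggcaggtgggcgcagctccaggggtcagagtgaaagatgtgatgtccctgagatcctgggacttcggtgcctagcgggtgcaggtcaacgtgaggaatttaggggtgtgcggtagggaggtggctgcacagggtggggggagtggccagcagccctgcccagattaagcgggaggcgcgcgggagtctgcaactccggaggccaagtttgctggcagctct
Col4a5: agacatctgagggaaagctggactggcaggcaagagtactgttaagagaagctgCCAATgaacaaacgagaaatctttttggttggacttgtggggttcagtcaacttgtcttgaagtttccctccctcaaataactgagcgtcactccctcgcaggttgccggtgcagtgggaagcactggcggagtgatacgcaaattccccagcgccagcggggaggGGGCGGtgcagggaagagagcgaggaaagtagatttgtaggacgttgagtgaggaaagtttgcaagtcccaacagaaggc
Col4a6: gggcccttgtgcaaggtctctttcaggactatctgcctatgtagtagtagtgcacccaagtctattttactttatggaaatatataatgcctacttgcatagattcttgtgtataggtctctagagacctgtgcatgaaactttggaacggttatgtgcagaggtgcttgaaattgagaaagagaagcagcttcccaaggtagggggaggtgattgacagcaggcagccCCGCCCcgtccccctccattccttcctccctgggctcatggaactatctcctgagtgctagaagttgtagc
The Col4a4 window holds neither motif and so has no capitals. GGGCGG was present in 8 of the 9 windows, against 35.7% of all 32851 RefSeq windows, and CCAAT in 4 of 9, against 37.4%. TATAAA was present in 0 of 9 (13.6% of all windows) and TAATTA in 0 of 9 (5.29%). The 1 GGGCGG match of Col4a1 lies in the stretch shared with Col4a2, so the same site is counted in both windows. All motifs were searched on both strands, and a match to these letters is a description of the window. Bases G and C made up 74.0% of the Col4a1 window, 73.7% of that of Col4a2 and 63.3% of that of Col4a4. They made up 52.7% of the Col4a5 window and 48.3% of that of Col4a6. In the windows not printed they made up 83.3% and 61.3% (Agrn), 70.3% (Hspg2) and 64.7% (Nid1). The median over all windows was 52.7%.

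Most of the 10 genes had ratios below 0, that is, less RNA at 11.5 than at 13.5 dpc. The mean was negative for 8 genes and positive for 2, from -1.57 for Col4a3 to 0.084 for Col4a4, with a median of -0.38 beside -0.0084 over all rows. On every array 6 genes lay below 0 (Col4a2, Col4a3, Col4a5, Col4a6, Nid1 and Nid2), 0 lay above 0 and 4 had mixed signs. Over all rows 18.5% lay below 0 on every array and 16.8% above (35.3% with 1 sign), shares from which nothing is read about genes proposed with this comparison known. A ratio of at least 2-fold below 0 on every array was reached by 1 of the 10, Col4a3, beside 0.436% of all rows. Nid2 counts among the 6 through a value of -0.0029 on array 1. Tested with limma against 0 and adjusted by Benjamini-Hochberg over 19015 rows, 0 rows passed (0%; smallest adjusted p = 0.197, with 1757 rows at an unadjusted p under 0.05). With array 3 turned the count below 0 on every array was 1 (Hspg2), and it was 3 once the running median of 400 features in library order had been taken off each array (Col4a2, Col4a3 and Col4a6).

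**Figure D1:**
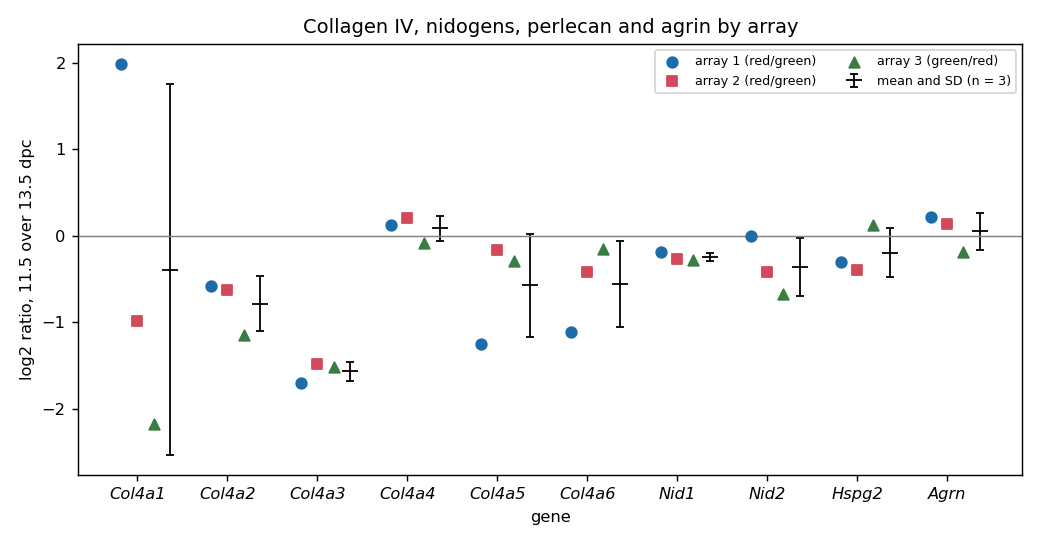
Log2 ratios (11.5 over 13.5 dpc, vertical axis) of the 10 genes on each of 3 arrays, with the mean and SD beside them. Col4a3 lies between -1.70 and -1.49 on all arrays, whereas Col4a1 runs from 1.99 to -2.18.

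Although Col4a1 lay lower on array 3 (-2.18), Col4a3 had the lowest mean among the collagen chains. Its log2 ratios were -1.70, -1.49 and -1.52 on arrays 1, 2 and 3, all well below 0 and within 0.21 of each other. The mean was -1.57 ± 0.11 (SD, n = 3 arrays), or 2.97-fold lower at 11.5 dpc, and 80 of the 19015 rows had a lower mean. The gene encodes a chain of the mature glomerular basement membrane and is known as a gene of Alport syndrome. Its neighbour Col4a4, a chain of the same trimer, gave 0.13, 0.21 and -0.080. These values straddle 0, and the mean was 0.084 ± 0.15 (0.023 without array 2 and 0.17 without array 3).

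Within this pair every array placed Col4a3 below Col4a4. The difference in log2 ratio (Col4a3 minus Col4a4) was -1.83, -1.69 and -1.44 on arrays 1, 2 and 3, with a mean of -1.65 ± 0.19, and the values of the 2 genes did not overlap. Both genes rest on 1 feature each, and spot brightness was not analysed here. Turning array 3 would leave a mean difference of -0.69.

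The pair of the general network, Col4a1 and Col4a2, behaved differently from array to array. Col4a2 had log2 ratios of -0.58, -0.63 and -1.15, all below 0, with a mean of -0.79 ± 0.32 (1.72-fold lower at 11.5 dpc). Col4a1 had 1.99, -0.99 and -2.18, a spread over 4.17 log2 units that crosses 0. Its mean of -0.39 ± 2.15 has an SD exceeded by 2.35% of all rows, and it does not describe any of the 3 arrays. Array 1 alone placed Col4a1 above its partner, by 2.57, while arrays 2 and 3 placed it below, with differences (Col4a1 minus Col4a2) of -0.36 and -1.03. Without array 1 the mean of Col4a1 was -1.58, and without array 3 it was 0.50, so its direction rests on which array is kept.

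Col4a5 and Col4a6, the X-linked pair, had ratios close to each other on every array. Col4a5 gave -1.25, -0.17 and -0.29, with a mean of -0.57 ± 0.60. Col4a6 gave -1.11, -0.42 and -0.15, with a mean of -0.56 ± 0.50. Both genes were lowest on array 1, where they lay in the lowest 1.91% and 2.82% of rows, and nearer to 0 on the other two. Col4a5 minus Col4a6 was -0.14, 0.25 and -0.14, a mean of -0.010 ± 0.23, which is smaller than its spread over arrays. Without array 1 the means were nearer to 0, at -0.23 for Col4a5 and -0.29 for Col4a6.

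**Figure D2:**
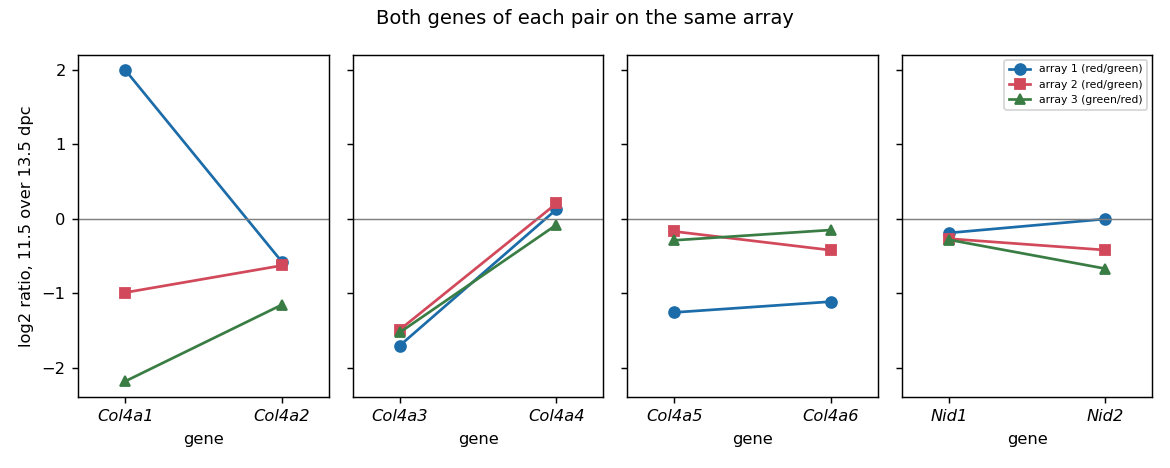
Log2 ratios (11.5 over 13.5 dpc, vertical axis) of both genes of each collagen IV pair and of the nidogens, joined by a line for each of the 3 arrays. All 3 lines rise from Col4a3 to Col4a4 (mean difference -1.65), the Col4a5 and Col4a6 lines are nearly flat, and from Col4a1 to Col4a2 the array 1 line falls while the lines of arrays 2 and 3 rise.

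The nidogens lay slightly below 0. Nid1, which joins laminin to collagen IV, gave -0.19, -0.27 and -0.28, and its mean of -0.25 ± 0.05 had the smallest SD of the 10 genes. Only 1.91% of all rows had a smaller SD. Nid2, the second nidogen, gave -0.0029, -0.42 and -0.67, with a mean of -0.36 ± 0.34 (-0.21 without array 3). The ranges of the 2 genes overlap, and Nid1 minus Nid2 was -0.19, 0.15 and 0.39 (mean 0.12 ± 0.29).

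Both proteoglycans changed sign between arrays. Hspg2 gave -0.31, -0.40 and 0.13, a mean of -0.19 ± 0.28 (-0.092 without array 2 and -0.35 without array 3). Agrn, the average of 3 features, gave 0.21, 0.13 and -0.19, a mean of 0.051 ± 0.21 (-0.030 without array 1 and 0.17 without array 3). Arrays 1 and 2, of 1 dye order, agreed in sign for each of these genes and array 3, of the other order, had the opposite sign. Col4a4 showed the same split, though its -0.080 on array 3 lay near the median of all rows on that array, -0.091. For these 3 genes dye order and array 3 cannot be told apart.

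The 3 Agrn features differed in sign. The feature numbered 3977 in the library gave 0.37, 0.19 and -0.053, and that numbered 6196 gave 0.54, 0.36 and -0.095. The feature numbered 9090 gave -0.27, -0.16 and -0.42, below 0 on every array. Their means were 0.17 ± 0.21, 0.27 ± 0.33 and -0.28 ± 0.13. The last feature lay below both others on each array, so the gene's mean near 0 averages features that disagree. Agrn is known to give several transcripts, and which of them each feature reads was not examined here. The other 9 genes have 1 feature each, so no such check exists for them.

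Because the arrays differ in spread (SD over all rows of 0.56, 0.75 and 0.93), the place of a gene among all rows was also taken on each array. Col4a3 stood at percentiles 0.555, 3.94 and 2.15 and Col4a2 at 12.6, 10.9 and 4.76, low on each array. Col4a1 stood at 99.8 on array 1 and at 6.56 and 0.523 on arrays 2 and 3. Col4a4 stood at 60.0, 63.3 and 50.9 and Agrn at 66.6, 56.4 and 41.4, in the middle of all rows. Nid1 stood at 33.9, 23.8 and 34.1, Nid2 at 48.9, 16.7 and 13.6, and Hspg2 at 25.7, 17.4 and 68.2. Col4a5 stood at 1.91, 30.0 and 33.6 and Col4a6 at 2.82, 16.6 and 44.6, far from the low end on array 3.

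**Figure D3:**
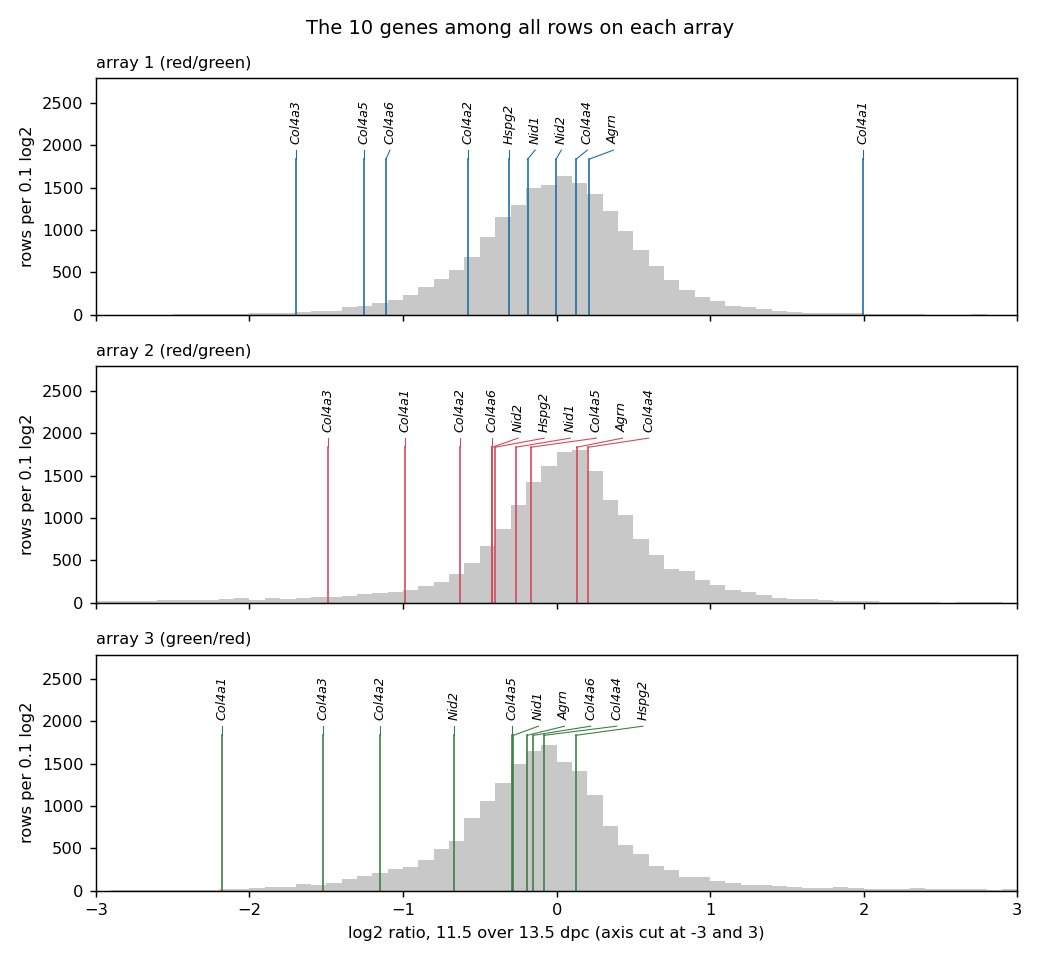
Number of rows per 0.1 log2 unit (vertical axis) by log2 ratio (11.5 over 13.5 dpc) on each array, with a line for each of the 10 genes. The horizontal axis is cut at -3 and 3, and rows beyond are not shown. Col4a3 stays in the left tail on all 3 arrays, and Col4a1 moves from the right tail on array 1 to the left tail on array 3.

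The 9 genes with 1 feature each lie close together in the oligonucleotide library, at feature numbers 5059 to 5229. Of the 153 other features with 1 symbol there, 43 (28.1%) carry the symbol of a collagen, cadherin, laminin, claudin, integrin or thrombospondin gene, against 0.697% elsewhere in the library, and 17 are other collagen chains. The ratios of the features around the 9 genes were counted in the same way. Between the first and the last of these genes stand 162 other features, and 62 of the 148 with a value on all arrays (41.9%) were below 0 on every array. With 200 features added on each side the share was 31.0% (161 of 519), and 30.1% (151 of 501) after the 5 lists of basement membrane genes given below were also left out, against 18.1% in the rest of the library. The running median of 400 features at the 9 genes lay between -0.33 and -0.31 on array 1, between -0.23 and -0.19 on array 2 and between -0.092 and -0.050 on array 3. Over the library its median was 0.033, 0.084 and -0.086 and its lowest value -0.35, -0.24 and -0.24. The low stretch was wider than features 5059 to 5229. On array 1 the running median was -0.19 at feature 4552, -0.35 at feature 5627 and -0.27 at feature 6652. At the same features it was -0.15, -0.23 and -0.077 on array 2. Genes of these families are grouped at features 5059 to 5229, so position and gene class cannot be told apart there. Families were not counted separately over the rest of the low stretch. After the running median was subtracted, Col4a3 had a mean of -1.35, Col4a2 -0.59, Col4a5 -0.38, Col4a6 -0.37, Nid2 -0.16, Nid1 -0.049, Hspg2 -0.0016 and Col4a4 0.28, with Col4a1 at -0.19. A window of 401 features turned Hspg2 to 0.00038, so its sign after this step rests on 1 feature of the window.

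**Figure D4:**
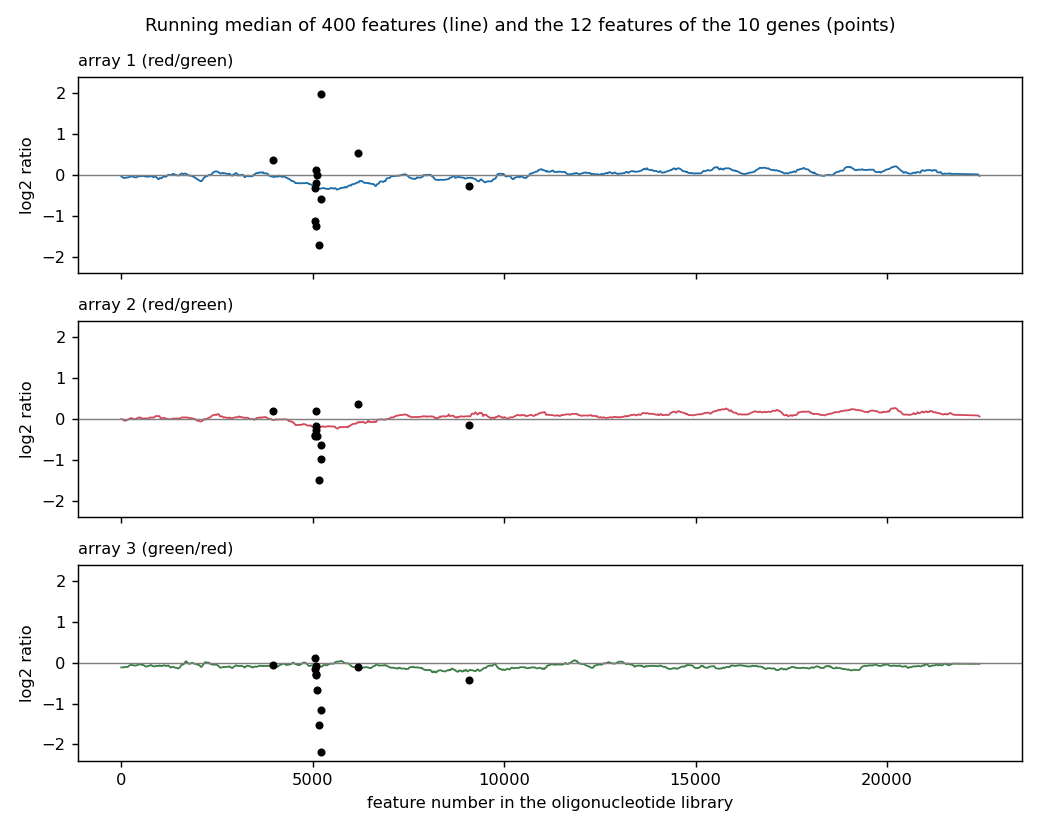
Running median of the log2 ratio over 400 features (line) by feature number in the library on each array, with the 12 features of the 10 genes as points. On arrays 1 and 2 the line is low over a wide stretch that includes features 5059 to 5229, where 9 of the genes lie. Col4a3 lies far below the line on all 3 arrays.

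Other genes of the basement membrane were described from 5 lists. Laminin chains, the partners of collagen IV in the sheet, had a median of -0.33 over 9 measured of 11. Of these, 5 lay below 0 on every array (Lama1, Lama4, Lama5, Lamb1 and Lamc3), 1 above (Lama2) and 3 had mixed signs. Lama5, the alpha chain of the mature glomerular basement membrane, had -0.60 ± 0.05 and Lamb1, the early beta chain, -0.73 ± 0.08, while Lamb3, with the widest range, had -0.16, -0.55 and 0.56. Enzymes and chaperones of collagen had a median of -0.28 over 13 of 17, with 7 below 0 on every array and 0 above. Crtap, a partner in prolyl hydroxylation, had -0.52 ± 0.14 and the prolyl hydroxylase subunit P4ha2 -0.27 ± 0.16. P4ha1, another alpha subunit of that enzyme, had 0.021, -1.84 and 0.54.

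Further components of the sheet had a median of -0.44 over 13 of 17, with 7 below 0 on every array and 1, Smoc1 (0.51 ± 0.26), above. Ntn4, a netrin of basement membranes, had -0.44 ± 0.09 and the calcium-binding protein Smoc2 -1.61 ± 0.23. The integrin ligand nephronectin (Npnt) had -0.73, -2.43 and -0.24. Receptors had a median of -0.55 over 11 of 12, with 4 below 0 on every array (Itga6, Dag1, Ddr1 and Bcam) and 0 above. Dystroglycan (Dag1), which binds laminin, perlecan and agrin, had -0.66 ± 0.11 and the laminin receptor subunit Itga6 -0.40 ± 0.10, while Itgb4 had -1.95, -1.81 and 0.85. Without array 3 there were 9 receptors below 0 on both remaining arrays. The receptor median was -0.42, -0.48 and -0.065 on arrays 1, 2 and 3, and -0.38 for means balanced over dye orders. Proteases and inhibitors had a median of -0.15 over 7 of 8, with 1, the membrane-bound protease Mmp14 (-0.22 ± 0.19), below 0 on every array, and Adamts1 had -0.37, 0.37 and -1.51. That count was 2 without array 2 and 3 without array 3. The share of genes below 0 on every array was 60.0% for collagen IV, nidogens, perlecan and agrin, beside the 18.5% of all rows. It was 55.6% for laminins, 53.8% for collagen processing, 53.8% for further components, 36.4% for receptors and 14.3% for proteases. Between the features of the 9 genes in the library lie 4 of laminin chains, 3 of integrins and 17 of other collagen chains. Of all other features there with a value on all arrays, 41.9% were below 0 on every array. After the running median was subtracted, list medians were -0.21 (laminins), -0.26 (collagen processing), -0.29 (further components), -0.34 (receptors) and -0.12 (proteases). Counts below 0 on every array were then 5, 6, 7, 4 and 1, in that order.

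Endothelial and podocyte markers had medians below 0, with mixed signs among their genes. Endothelial markers, from cells that lay down Col4a1 and Col4a2, had a median of -0.39 over 12, with 8 below 0 on every array (66.7%, beside 18.5% of all rows), 0 above, 4 of mixed sign and means from -0.83 to 0.063. Icam2 had -0.83 ± 0.10, Cdh5 -0.55 ± 0.11 and Pecam1 -0.67 ± 0.50. The features of 4 endothelial markers (Pecam1, Cdh5, Eng and Icam2) lie between those of the 9 genes in the library, and so does that of 1 podocyte marker (Nphs1). These 4 endothelial markers are all among the 8 below 0 on every array. Of all other features between the 9 genes, these markers included, 41.9% of those with a value on all arrays were below 0 on every array. Podocyte markers, from cells that make Col4a3 and Col4a4, had a median of -0.31 over 9 of 12 and means from -0.87 to -0.032. Below 0 on every array were 5 (Wt1, Tcf21, Lmx1b, Cd2ap and Nes, 55.6%), and 4 had mixed signs (Nphs1, Podxl, Synpo and Ptpro). Nphs1 had -0.091, 0.18 and -0.74, Podxl 0.30, -0.43 and 0.044, and Synpo 0.13, -0.65 and -0.71. Tcf21 had -0.29 ± 0.17, Wt1 -0.31 ± 0.20 and Ptpro -0.43 ± 0.52. Col4a3, at -1.57, lay below each of these 9 means and Col4a4, at 0.084, above each of them.

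The remaining lists had medians nearer to 0 or above it, and their counts stand beside 18.5% of all rows below 0 and 16.8% above on every array. Ureteric bud markers had a median of -0.092 over 11 of 12 (4 below 0, or 36.4%, and 2 above, Ret and Calb1, on every array), with Calb1 at 0.19 ± 0.05 and Cdh16 at -1.62 ± 0.12. The features of Cdh16 and Cdh1, a further marker of this list, lie between those of the 9 genes in the library. Gata3 had -0.18, -1.22 and 2.21. Nephron progenitor markers had a median of -0.27 over 8 (4 below and 1 above), with Osr1 at 0.42 ± 0.14, Gdnf at -0.29 ± 0.16 and Itga8, which is also in the receptor list, at -0.70 ± 0.99. Stromal markers had a median of 0.36 over 7 of 8, with 2 below (Aldh1a2 at -0.30 ± 0.06 and Pdgfra at -0.15 ± 0.12) and 4 above on every array (57.1%; Foxd1 at 0.72 ± 0.36, Meis1 at 0.73 ± 0.14, Tbx18 at 0.36 ± 0.32 and Pdgfrb). Pdgfrb had 0.39, 0.49 and 4.53, so its mean of 1.80 rests on array 3. Erythroid markers had a median of 1.28, with all 7 measured of 8 above 0 on every array, among them Hba-a1 (0.33 ± 0.16), Hba-x (0.47 ± 0.20) and Hbb-bh1 (4.07 ± 1.09). The part of these cell types in the ratios of the collagen IV and nidogen genes was not tested.

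**Figure D5:**
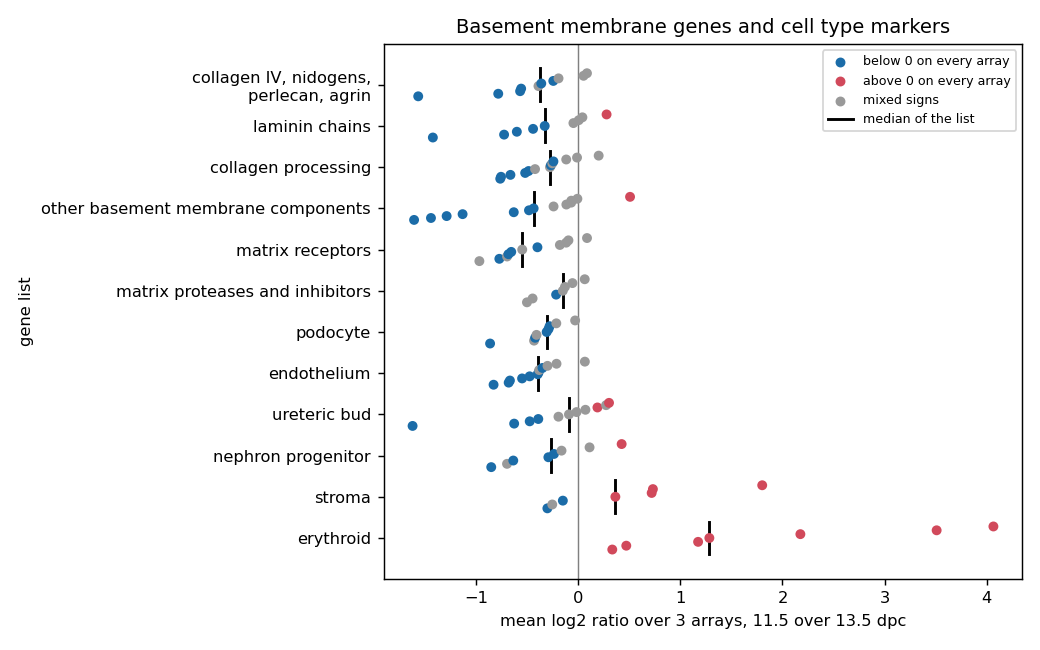
Mean log2 ratio over 3 arrays (11.5 over 13.5 dpc, horizontal axis) of each gene in the lists, coloured by sign over the arrays, with the median of each list as a bar. The median of the 10 genes is -0.38, near that of laminins (-0.33) and endothelial markers (-0.39), and erythroid markers lie above 0.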

How the data were processed

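Expression was measured on 3 two-channel Compugen arrays, each with both ages. The deposited values are log2 ratios. Their base was read from the values: with base 2, 100% of the ratios were whole steps of 0.001 (tolerance 0.02 steps, values from -3 to 2), against 4.42% with base e and 4.26% with base 10. Per the labels, images were quantified with ImaGene 5.5, and normalisation is given both as print-tip loess with a normalisation between arrays in R and as a Lowess curve through 20.0% of the data with a minimum of 10 for the control channel. Neither the labels nor the table say which of these applies. Dim or saturated spots could not be told, since brightness was not analysed here.

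Of 22702 features, 883 controls or blanks were left out. Of 21819 gene features, 16656 had 1 symbol, 137 several and 5026 none. Entrez identifiers matched 15970 to RefSeq (GRCm38.p6) and renamed 0. The 20386 features present on all 3 arrays were averaged by symbol to 19015 rows and tested with limma 3.58.1 in R 4.3.3 (lmFit, eBayes), an approach tested on simulated data. The number of arrays limits the precision. Members and lists were chosen with earlier results of these data known, and the description of the library stretch after the values were seen. All 10 members are named; of each list, the 2 genes with the smallest SD among those of 1 sign on every array and the 1 with the widest range, and others only where a count of 5 or fewer or a background role is given. Alternatives were centring, scale and quantile normalisation, each array left out, array 3 turned, a dye term or balanced mean, a running median of 400 features, single features, rows beyond 5 left out, and other folds. That running median was first taken over 401 features. It was set to 400 after the values had been seen, and 401 is given as an added alternative.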

Additional observations from a re-analysis of the deposited data

How the results depend on the processing

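Limma passed 0 rows at an adjusted p of 0.05 under each of the 12 alternatives run. Rows of 1 sign on every array numbered 6713, and 9737 to 12271 with 1 array left out; rows at least 2-fold numbered 130, 266 to 341 with 1 array left out (fewer arrays had to meet the rule), 42 with array 3 turned, 479 at 1.5-fold and 28 at 3-fold. Of the 10 genes, Col4a2, Col4a3, Col4a5, Col4a6 and Nid1 were negative in all 11 alternatives each, some of which can move a mean over 3 arrays only a little or not at all; Col4a3 ran from -1.79 to -0.55. The running median was first taken over 401 features and set to 400 after the values had been seen; the window of 401 is therefore given as an added alternative, and with it Hspg2 was 0.00038 in place of -0.0016, the number of the 10 genes below 0 on every array 3, their median -0.18, and the laminins 4 below 0 (5 with 400) with a median of -0.21. The other sign changes were Col4a1 (-1.58 to 0.50 with 1 array left out, positive without array 3, and 1.06 with array 3 turned), Nid2 with array 3 turned (0.082), and Agrn (-0.030 to 0.17 with 1 array left out, negative without array 1, and -0.0094 balanced over dye orders).

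The number of the 10 genes below 0 on every array was 6 to 7 with 1 array left out, 1 with array 3 turned and 3 after the running median; their median was -0.29 to -0.28, -0.038 and -0.17. Turning array 3 gave 1 laminin below 0 on every array (median -0.18), 0 of collagen processing (-0.093), 0 further components (0.00082), a receptor median of -0.29, and 2 proteases (0.069). The laminin median after the running median was -0.21. With 1 array left out, the collagen processing median ran from -0.49 to -0.28, receptors below 0 from 4 to 9 and proteases from 1 to 3. Col4a1 minus Col4a2 ran from -0.69 to 1.10 with 1 array left out. Col4a3 minus Col4a4 was -1.88 after quantile normalisation and -0.69 with array 3 turned. Col4a5 minus Col4a6 ran from -0.14 to 0.057 with 1 array left out and was 0.082 with array 3 turned. The cause was not tested for any of these. Each ratio compares both ages within 1 array, so the limma test against 0 is itself the paired comparison. Signal over background was not known, so no ratio could be weighed by brightness.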
